A study of Homo sapiens with 6 samples.

Results

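The genes described here encode 10 amino acid transporters of the plasma membrane: SLC7A5, SLC3A2, SLC7A1, SLC7A11, SLC7A6, SLC1A4, SLC1A5, SLC38A1, SLC38A2 and SLC43A1. They were taken by symbol from the gene count table and are 10 of its 26364 genes. SLC7A5 headed the choice because it was known to be abundant and higher with estradiol in each line, so its own estradiol change is given as a description and not as a test. The choice rule names no measured value for the other 9 members, although earlier results of these data were known when the members were listed. All 10 members passed the filter on low counts.

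The cells were Ishikawa cells, an established human line from an endometrial adenocarcinoma that expresses estrogen receptor alpha. RNA was sequenced from the parental line and from ETV4 knockout clones 1 and 2, each after 0.1% DMSO (the vehicle) or 10 nM estradiol (E2). ETV4 is an ETS family transcription factor, and the study asked how its loss affects expression and the response to estrogen. All 6 cultures had spent 5 days in medium stripped of hormones. Treatment lasted 8 h by the protocols, while the sample characteristics give 1 h, and the values here cannot settle which is right. Each knockout line is 1 clone and the parental line has 1 library per treatment, so a difference between clones and parental cells cannot be told apart from a difference between cell clones. Nothing in the labels says how cultures were replicated, so a p-value here measures only the spread between these libraries.

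Amino acids cross the cell membrane through carriers that differ in substrate and in what drives them. SLC7A5 (LAT1) exchanges large neutral amino acids such as leucine, and it reaches the membrane only as a pair with the glycoprotein SLC3A2 (4F2 heavy chain, CD98). SLC7A11 (the cystine and glutamate exchanger) and SLC7A6 use the same heavy chain, whereas SLC7A1, SLC43A1 and the carriers of the SLC1 and SLC38 families do not need it. The sodium-driven carriers SLC1A5, SLC38A1 and SLC38A2 take up glutamine, which LAT1 can export in exchange for leucine, and leucine inside the cell activates the growth kinase mTORC1.

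Promoter sequences are shown for SLC7A5, the member with the largest E2 ratio, and for SLC7A1, the member farthest above the parental line in the knockout clones. Both are the 250 bases upstream of the start site in RefSeq (GRCh38.p14), written 5′ to 3′ on the gene's strand, and both genes lie on the minus strand. The SLC7A5 window is chr16:87869508-87869757, with an E-box (CACGTG, read by MYC, USF and related factors) in capitals. The SLC7A1 window is chr13:29595689-29595938, with the letters TGACNNNGC, the core of the antioxidant response element read by NRF2, in capitals.
SLC7A5: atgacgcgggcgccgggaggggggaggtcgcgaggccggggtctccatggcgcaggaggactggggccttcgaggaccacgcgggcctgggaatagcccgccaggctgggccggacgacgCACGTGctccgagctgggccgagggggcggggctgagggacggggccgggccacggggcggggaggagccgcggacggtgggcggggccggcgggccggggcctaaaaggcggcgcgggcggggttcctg
SLC7A1: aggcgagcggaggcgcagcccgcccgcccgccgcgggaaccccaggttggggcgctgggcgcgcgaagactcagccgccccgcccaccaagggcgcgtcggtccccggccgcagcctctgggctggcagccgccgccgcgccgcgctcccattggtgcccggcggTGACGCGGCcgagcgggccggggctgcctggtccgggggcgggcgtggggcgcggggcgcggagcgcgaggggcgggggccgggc

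Of the 10 members, 9 had an entry in this promoter table, with 16 windows between them that run from 250 bases before to 50 after a start site. Both strands were searched for 5 motifs, and offsets are counted from the start site to the first base of the match. CACGTG was present in 3 of the 16 windows, against 7.3% of all 35116 windows in the table. The SLC7A5 match lay at offset -130, and the other matches were in SLC43A1 at offset -112 and in a window of SLC1A5 at offset -50. TGATGNAA, the core of the element through which ATF4 answers amino acid shortage, was present in 5 of the 16 windows, against 3.6% of all windows. The matches were in SLC3A2, SLC7A1, SLC1A4, SLC1A5 and SLC38A1, and short stretches around 4 of them are given with the match in capitals, on the gene's strand, where the SLC3A2 and SLC1A4 matches read as the reverse complement.
SLC3A2, offset 37: aggactccTTACATCAgctcc
SLC7A1, offset 7: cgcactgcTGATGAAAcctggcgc
SLC1A4, offset -7: gctcccgtTTGCATCAtctccagc
SLC38A1, offset -4: gacccgaaTGATGAAAagggatca
TGACNNNGC was present in 5 of the 16 windows (13.3% of all windows), in SLC7A5, SLC3A2, SLC7A1, SLC7A6 and SLC1A5, where the SLC7A5 match began 2 bases before the start site and so is only partly inside the stretch printed above. CCGGAA, the core bound by ETS factors such as ETV4, was present in 2 of the 16 windows (17.2% of all windows), in SLC7A1 and SLC7A6. The full estrogen response element (the half-sites GGTCA and TGACC, 3 bases apart) was found in 0 of the 16 windows and in 0.1% of all windows. A match is a run of letters and neither a binding site nor a cause, and a window without one says nothing about the factor.

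The libraries held between 28037392 and 36829479 counts. ETV4 itself, which checks the labels, had 586 and 1063 counts in the parental DMSO and E2 libraries, 122 and 86 in clone 1, and 71 and 81 in clone 2. Values below are CPM, counts scaled to a common library total after adjustment for library composition. The parental DMSO library stood somewhat apart: it had the lowest scaling factor (0.899, against 1.01 to 1.04 in the others) and the fewest genes with a count (17755, against 18119 to 18658). The E2 to DMSO ratio in the parental line also rose with the GC content of transcripts (Spearman rho 0.33 across genes, which are not independent replicates), more than in clone 1 (0.128) or clone 2 (-0.009). The main results that rest on this library are therefore set beside values from the clones alone or values with a GC and length correction. Summed epithelial markers (EPCAM, CDH1, KRT7, KRT8, KRT18 and KRT19) were 2579 to 2940.0 CPM with DMSO and 1971 to 2209.9 CPM with E2, and 0 of the 6 passed the test for an E2 effect; their part in the results below was not tested. CDH1 was higher with E2 in the parental line (445 to 494 CPM) and clone 1 (309 to 364), and lower in clone 2 (491 to 469.7). Summed stromal markers were 49.1 to 87.4 CPM, endothelial markers 1.88 to 4.86 CPM and immune markers 3.23 to 5.69 CPM, with CD3E at 0 in every library. Most of the stromal sum was COL1A1 (44.8 to 75.2 CPM) and most of the immune sum was CD68 (2.19 to 4.57 CPM). These sums therefore do not measure shares of cell types. In such bulk RNA, fewer cells of a kind and less RNA per cell cannot be told apart.

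Levels between genes were compared per kilobase of the longest annotated transcript. On this scale SLC7A5 had the highest mean, 242 CPM per kb over the 6 libraries, above that of 98.7% of the 14624 tested genes with a transcript length. SLC3A2 followed at 129 CPM per kb, then SLC38A2 at 114, SLC1A5 at 91.9, SLC38A1 at 80.9 and SLC7A1 at 61.1. Lower levels were seen for SLC7A11 (21.4 CPM per kb), SLC1A4 (12.1), SLC7A6 (6.94) and SLC43A1 (0.902). The ranges of neighbours overlapped from SLC7A5 down to SLC7A1: SLC7A5 ran from 88.5 to 408 CPM per kb, SLC3A2 from 79.2 to 188, and SLC38A2 from 95.7 to 129. In the DMSO library of the parental line SLC38A2 stood above SLC7A5 (129 against 88.5 CPM per kb), and in every E2 library SLC7A5 was first. SLC7A11, SLC1A4, SLC7A6 and SLC43A1 did not overlap with each other in any library.

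**Figure D1:**
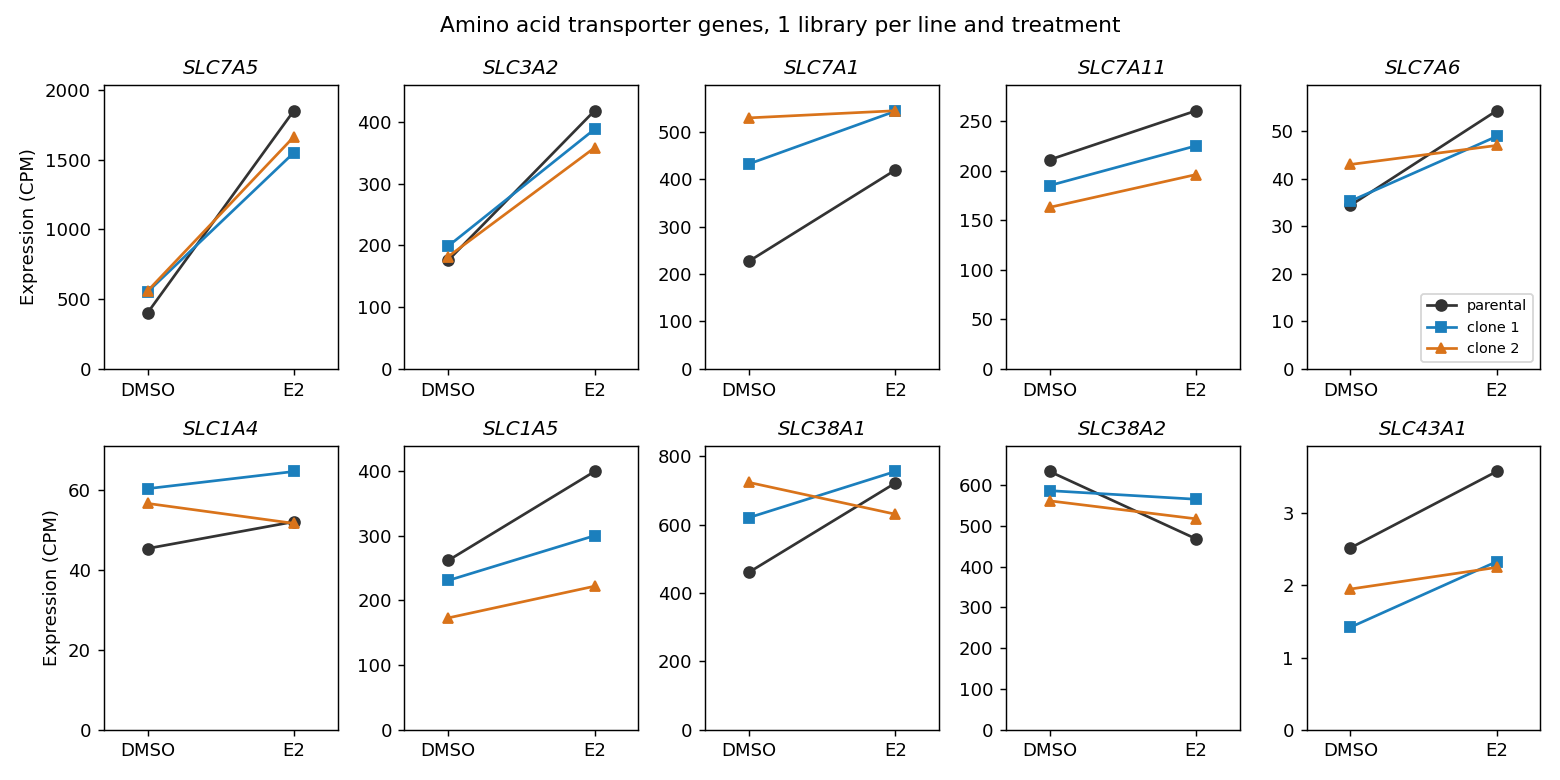
Expression of the 10 transporter genes in CPM (vertical axes, each starting at 0) with DMSO and with E2, where a point is 1 library and a line joins the libraries of 1 cell line. SLC7A5 rose from 402 to 1851 CPM in the parental line, SLC7A1 started at 227 CPM in the parental line against 432 and 529 CPM in the clones, and the SLC38A2 lines slope down.

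The first question was what E2 did to the pair that forms LAT1. With DMSO, SLC7A5 stood at 402 CPM in the parental line, 552 CPM in clone 1 and 559 CPM in clone 2. With E2 it stood at 1851, 1549.8 and 1664 CPM in the same order. Every E2 library was above every DMSO library, by 4.61-fold in the parental line, 2.81-fold in clone 1 and 2.98-fold in clone 2. Fitted over the 3 lines, the log2 change of SLC7A5 was 1.76 (SE 0.18), and over the clones alone it was 1.52 (SE 0.16). Ranked among the 15611 genes tested by E2 ratio, SLC7A5 was in place 287 in parental cells, 242 in clone 1 and 236 in clone 2.

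SLC3A2, the heavy chain, had 176, 199 and 182 CPM with DMSO in the parental line, clone 1 and clone 2. With E2 it had 418, 388 and 358 CPM. The 2 treatments did not overlap, and the log2 ratio was 1.25 in parental cells, 0.96 in clone 1 and 0.98 in clone 2. SLC3A2 rose with E2 by 1.06 on the log2 scale (SE 0.13; adjusted p = 0.0208, quasi-likelihood test of edgeR, Benjamini-Hochberg adjusted). It was the only one of the 9 members other than SLC7A5 to pass, where 1.13% of all 15611 genes passed in either direction, 0.903% higher with E2 and 0.224% lower. Without the parental line the change was 0.96 (SE 0.15) and did not pass (edgeR adjusted p = 0.102), so that 0 of these 9 members passed in the clones alone, where 0.329% of all genes did. With the clone number as a block, which pairs the libraries of each clone, the same value passed (edgeR adjusted p = 1.78e-08), in a fit with 1 residual degree of freedom that called 15.0% of all genes. That fit took its spread from the trend over all genes, so this p-value hardly measures the spread of SLC3A2 itself.

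The light chain had the larger E2 ratio of the pair in each line. The ratio of SLC7A5 to SLC3A2 counts went from 2.28 with DMSO to 4.43 with E2 in the parental line, from 2.78 to 4.0 in clone 1, and from 3.08 to 4.65 in clone 2. Per kilobase, the ratio was 1.12 to 1.51 with DMSO and 1.96 to 2.28 with E2. SLC7A5 made up 16.4%, 19.0% and 18.7% of the members' summed CPM with DMSO, and 39.8%, 34.9% and 39.3% with E2, in the parental line, clone 1 and clone 2. The members' sum went from 2454 to 4649 CPM in the parental line, from 2903 to 4444 in clone 1 and from 2992 to 4235 in clone 2, and most of the difference in each line was SLC7A5.

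Part of the SLC7A5 signal may be shared with its near copies, which the counting could split. SLC7A5P1, a pseudogene, went from 1.11 to 4.2 CPM in the parental line, from 1.42 to 3.7 in clone 1 and from 1.16 to 4.37 in clone 2. SLC7A5P2 went from 0.84 to 4.06 CPM in the parental line and from 1.16 to 6.12 in clone 2, but from 3.66 to 3.02 in clone 1. Both are small beside SLC7A5. Whether their reads came from these loci or from SLC7A5 was not tested.

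The other partners of the heavy chain moved less. SLC7A11, which brings in cystine for glutathione synthesis, had 211, 185 and 163 CPM with DMSO and 260.4, 225 and 196 CPM with E2, in the parental line, clone 1 and clone 2. Its log2 ratios were nearly equal in the lines, at 0.30, 0.29 and 0.27, and its treatments overlapped, with the parental line highest in both. SLC7A6, which exchanges cationic for neutral amino acids, had 34.4, 35.3 and 43.0 CPM with DMSO and 54.3, 48.9 and 47.0 CPM with E2. The E2 libraries of SLC7A6 were all above the DMSO libraries, and its fitted log2 change was 0.41 (SE 0.14; edgeR adjusted p = 0.188). SLC7A11 had a fitted log2 change of 0.29 (SE 0.13; edgeR adjusted p = 0.261). An overlapping gene lies beside each (SLC7A6OS, SLC7A11-AS1), and because the strand setting of the counting is not given, their reads cannot be told apart with certainty.

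SLC7A1 (CAT1), the main carrier of arginine and lysine, had 227 CPM with DMSO in the parental line against 432 in clone 1 and 529 in clone 2. With E2 it had 419, 543 and 544 CPM. The parental DMSO library was lowest and the clones with E2 were highest, while the parental E2 library lay below both clones with DMSO. Its E2 log2 ratio was 0.88 in parental cells, 0.33 in clone 1 and 0.04 in clone 2, and the fitted change was 0.41 (SE 0.19; edgeR adjusted p = 0.266).

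Among the glutamine and alanine carriers, SLC1A5 (ASCT2) had 262, 231 and 173 CPM with DMSO in the parental line, clone 1 and clone 2. With E2 it had 399.6, 300.2 and 222 CPM. Each line was higher with E2 (log2 ratio 0.61, 0.38 and 0.36), but clone 2 with E2 stayed below the parental line with DMSO. The fitted change of SLC1A5 was 0.45 (SE 0.18; edgeR adjusted p = 0.23). With the clone block and the GC and length correction together it passed over the 3 lines (0.38, SE 0.08; edgeR adjusted p = 0.0375) and in the clones alone (0.36, SE 0.09; edgeR adjusted p = 0.0122). Those fits called 10.1% and 18.9% of all genes, and with the block alone SLC1A5 did not pass (edgeR adjusted p = 0.108 and 0.0869). SLC1A4 (ASCT1), which carries alanine, serine and cysteine, had 45.4, 60.4 and 56.7 CPM with DMSO and 52.1, 64.7 and 51.7 CPM with E2. The treatments of SLC1A4 overlapped and its ratio was below 0 in clone 2 (-0.13).

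SLC38A1 (SNAT1) had 461, 621 and 724 CPM with DMSO and 722, 756 and 631 CPM with E2, in the same order. It was higher with E2 in the parental line and clone 1 (log2 ratio 0.65 and 0.28) and lower in clone 2 (-0.20). SLC38A2 (SNAT2), which cells raise when amino acids run short, had 633, 586 and 561 CPM with DMSO and 468, 565 and 517 CPM with E2. It was the only member below 0 in all 3 lines (log2 ratio -0.44, -0.05 and -0.12), as were 25.1% of all genes, and its fitted change was -0.20 (SE 0.14; edgeR adjusted p = 0.426). SLC43A1 (LAT3), a carrier of neutral amino acids that works without the heavy chain, had 2.52, 1.42 and 1.95 CPM with DMSO and 3.58, 2.33 and 2.25 CPM with E2. Its values rest on 51 to 134 counts per library, and clone 1 and clone 2 with E2 lay below the parental DMSO library.

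**Figure D2:**
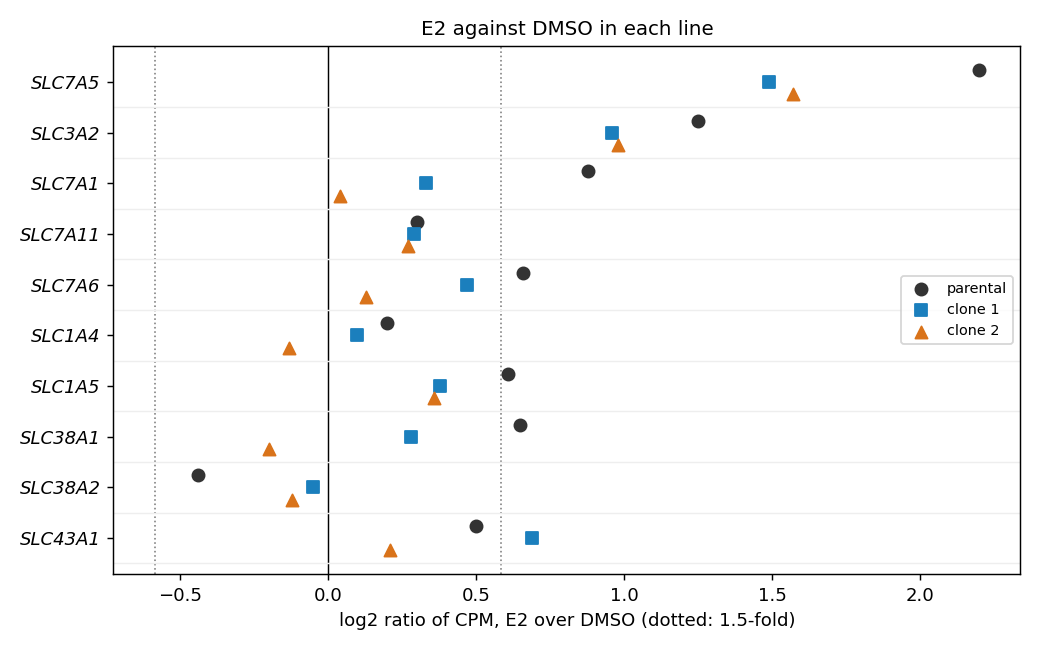
Log2 ratio of CPM with E2 to CPM with DMSO (horizontal axis) for each transporter gene in the parental line, clone 1 and clone 2, with dotted lines at 1.5-fold and 1 point per line. SLC7A5 (2.20, 1.49 and 1.57) and SLC3A2 (1.25, 0.96 and 0.98) lie past 1.5-fold in all 3 lines, and SLC38A2 lies below 0 in all 3.

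Counts over the members leave out SLC7A5, which meets each of them by choice. Of the other 9, 6 had an E2 ratio above 0 in all 3 lines, as did 27.8% of all genes. A ratio of at least 1.5-fold was reached by 5 of the 9 in the parental line (21.5% of all genes), by 2 in clone 1 (9.73%) and by 1 in clone 2 (9.12%). SLC3A2 alone among the 9 reached it in all 3 lines, as did 4.36% of all genes. With the GC and length correction, 1 of the 9 reached 1.5-fold in the parental line, as did 18.0% of all genes, so that the count went from above the background to near it. The median fitted E2 change was 0.41 over the 9 and -0.02 over all genes tested, both on the log2 scale. Over all 10 members, SLC7A5 included, the median was 0.41 in that fit and 0.28 in the clones alone. For all genes tested in the clones alone it was -0.01. At an unadjusted p below 0.05, 3 of the 9 were called (SLC3A2, SLC7A6 and SLC1A5, edgeR), as were 20.4% of all genes.

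The next question was whether the transporters differed between knockout clones and parental cells at either treatment. Across treatments, 0 of the 10 members passed the test for a knockout effect (edgeR quasi-likelihood, Benjamini-Hochberg adjusted), where 0.327% of all genes passed. This test counts the DMSO and E2 libraries of a line as separate replicates, although they come from the same cells. Its SE and p-values can therefore be too small, and the parental side is a single line. At an unadjusted p below 0.05, 3 of the 9 members other than SLC7A5 were called (SLC7A1, SLC1A5 and SLC43A1), as were 11.4% of all genes. SLC7A1 had the largest positive difference between clones and parental line, 0.71 on the log2 scale (SE 0.20; edgeR adjusted p = 0.288). It passed with DESeq2 (adjusted p = 0.0275), which called 460 genes against 51 in the main edgeR fit. With the clone as a random block in limma-voom it did not pass (0.74; adjusted p = 0.336). Without clone 2, the edgeR difference between clone 1 and the parental line was 0.65. With DMSO, SLC7A1 was above the parental line by 0.93 on the log2 scale in clone 1 and 1.22 in clone 2. With E2 those differences were 0.37 and 0.38. It was the only member at least 1.5-fold above the parental line in both clones with DMSO, as were 10.1% of all genes.

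SLC1A5 and SLC43A1 had lower values in the clones. SLC1A5 differed by -0.50 (SE 0.19; edgeR adjusted p = 0.392), and clone 2 was lower than clone 1 at both treatments (173 against 231 CPM with DMSO and 222 against 300.2 CPM with E2). SLC43A1 differed by -0.61 (SE 0.24; edgeR adjusted p = 0.414) and was the only member at least 1.5-fold below the parental line in both clones with E2, as were 2.75% of all genes. For SLC7A5 the clones were above the parental line with DMSO (log2 ratio 0.46 and 0.48) and below it with E2 (-0.26 and -0.15). With the GC and length correction these values were 0.28 and 0.04 with DMSO and -0.12 and -0.11 with E2, so that the clone 2 difference with DMSO was near 0. Its fitted knockout difference was 0.12 (SE 0.19; edgeR adjusted p = 0.775), and for SLC3A2 the value was -0.03 (SE 0.14; edgeR adjusted p = 0.936).

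**Figure D3:**
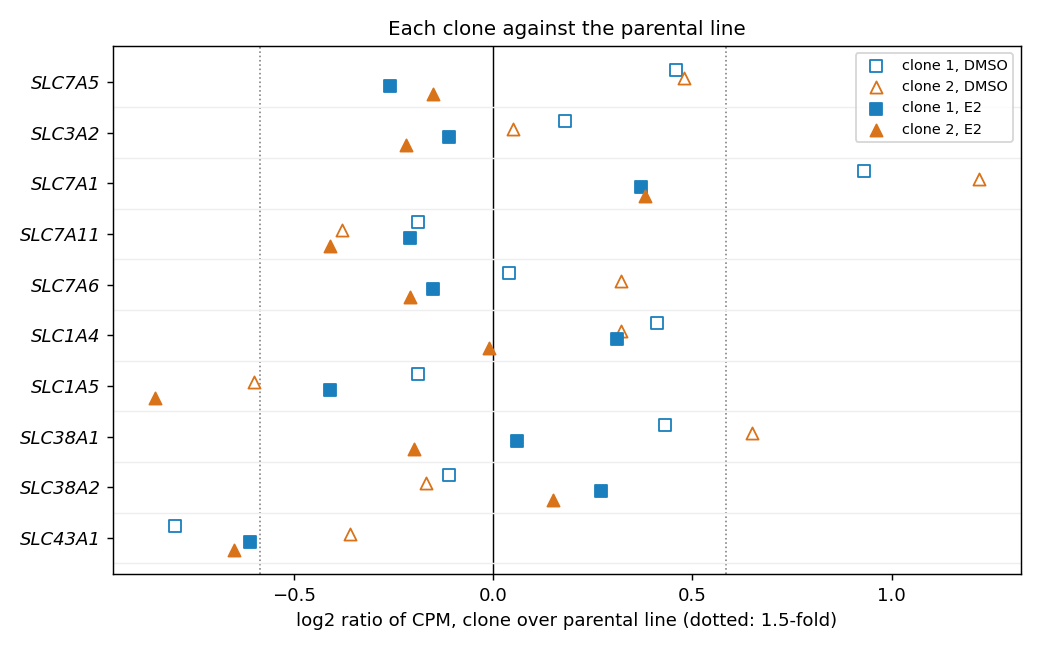
Log2 ratio of CPM in each knockout clone to CPM in the parental line (horizontal axis) for each transporter gene, with open marks for DMSO, filled marks for E2 and dotted lines at 1.5-fold. The SLC7A1 marks for DMSO (0.93 and 1.22) lie farthest right, and the SLC7A5 marks change side between DMSO (0.46 and 0.48, or 0.28 and 0.04 with the GC and length correction, which is not drawn) and E2 (-0.26 and -0.15, or -0.12 and -0.11).

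Whether the E2 change itself differed between clones and parental cells was tested as an interaction. The interaction passed in edgeR for 0 of the 9 members other than SLC7A5 and for 0 of all 15611 genes (0.00%). An unadjusted p below 0.05 was seen for 7.62% of all genes, and DESeq2 called 26 genes. The interaction of SLC7A5 was -0.67 on the log2 scale (SE 0.26), a smaller ratio in the clones. It draws on the E2 values by which SLC7A5 was chosen, so it is given as a description and not as a test. SLC7A1 had an interaction of -0.71 (SE 0.29; edgeR adjusted p = 0.617) and SLC38A1 one of -0.60 (SE 0.31; edgeR adjusted p = 0.617). With the clone number as a block, SLC7A1 passed (-0.70; edgeR adjusted p = 0.048) and SLC38A1 did not (-0.61; edgeR adjusted p = 0.1). That fit took its spread from the trend over all genes and called 15.8% of them, and its SLC7A5 estimate was again -0.67. With the block and the correction for GC content and length together, the SLC7A5 estimate was -0.27. In the same fit the estimates were -0.30 for SLC7A1 (edgeR adjusted p = 0.275) and -0.46 for SLC38A1 (edgeR adjusted p = 0.0773).

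The correction moved the parental E2 ratio of several members. The ratio of SLC7A5 in the parental line went from 2.20 to 1.77 with the correction, from 1.49 to 1.37 in clone 1 and from 1.57 to 1.62 in clone 2. SLC7A1 went from 0.88 to 0.44 in the parental line and from 0.33 to 0.17 in clone 1. SLC3A2 hardly moved, from 1.25 to 1.29 in the parental line. Before the correction, the parental ratio was larger than that of both clones for 7 of the 9 members other than SLC7A5 and for 44.4% of all genes. After the correction this held for 6 of the 9. The share of all genes after the correction was not computed, so that count has no background beside it. For SLC7A1 with DMSO, the clones stood above the parental line by 0.68 and 0.72 on the log2 scale after the correction. The fitted knockout differences were 0.55 for SLC7A1, -0.50 for SLC1A5, -0.58 for SLC43A1 and 0.02 for SLC7A5 with the correction, and 0 of these 4 passed.

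**Figure D4:**
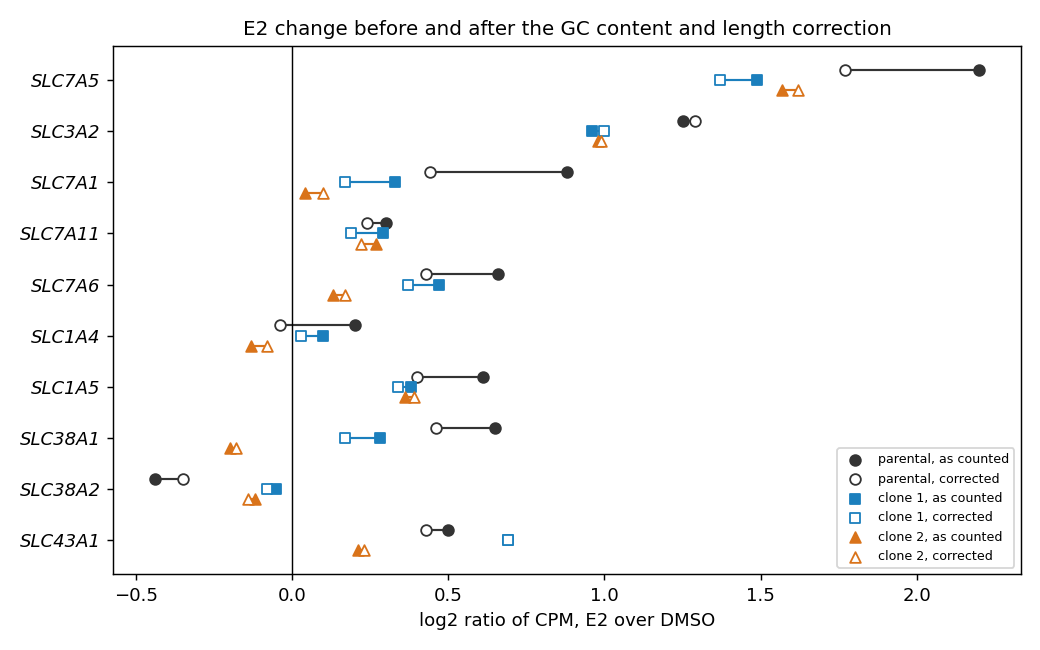
Log2 ratio of CPM with E2 to CPM with DMSO (horizontal axis) as counted (filled marks) and after correction for GC content and transcript length (open marks), joined by a line for each gene and cell line. The parental marks of SLC7A5 (2.20 to 1.77) and SLC7A1 (0.88 to 0.44) move left, and those of SLC3A2 (1.25 to 1.29) stay close together.

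Genes with a profile like that of SLC7A5 were ranked over the 6 libraries, by the distance between log2 CPM values after each gene's mean was taken away, among the 12366 genes whose mean reached 2 CPM. The nearest was PPARGC1B, a coactivator of nuclear receptors and of mitochondrial genes, at a distance of 0.27. It had 7.7, 11.5 and 13.1 CPM with DMSO and 38.4, 29.8 and 37.6 CPM with E2, in the parental line, clone 1 and clone 2. SLC7A5P1 (0.35), LOC101928979 (0.36), the small nucleolar RNA SNORA61 (0.39) and LRP5L (0.40) came next. The heavy chain SLC3A2 was in place 84 at a distance of 0.92. Since SLC7A5 was picked for its E2 rise, these are genes with a similar E2 rise by construction.

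**Figure D5:**
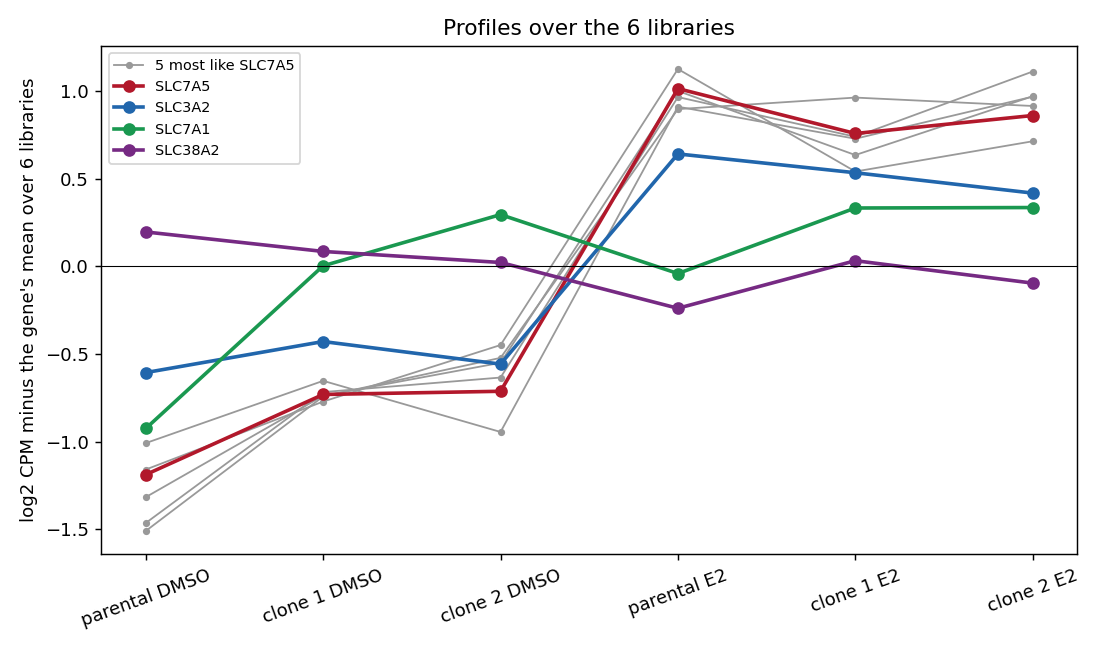
Log2 CPM minus the gene's mean over the 6 libraries (vertical axis) for SLC7A5, SLC3A2, SLC7A1, SLC38A2 and, in grey, the 5 genes most like SLC7A5, by library (horizontal axis, DMSO left and E2 right). SLC7A5 and the grey lines change together between treatments, SLC3A2 follows with a smaller step, and SLC7A1 is lowest in the parental DMSO library alone.

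Other amino acid carriers, 43 listed and 27 of them tested, held 1 gene that rose and 1 that fell with E2. The median change over the 27 was 0.11 on the log2 scale, against -0.02 for all genes tested. SLC6A6, the taurine carrier, had 37.3, 44.4 and 53.1 CPM with DMSO and 202, 303 and 306 CPM with E2, and rose by 2.57 (SE 0.14; edgeR adjusted p = 0.00214). The 2 treatments did not overlap for SLC6A6. SLC6A20, a carrier of proline, went from 37.5, 40.4 and 57.2 CPM to 19.4, 24.7 and 25.4 CPM, and fell by 0.96 on the log2 scale (SE 0.16; edgeR adjusted p = 0.0476). That call was lost in limma-voom (adjusted p = 0.0568), with at least 10 counts in every library (edgeR adjusted p = 0.0554) and without the parental line (-0.97; edgeR adjusted p = 0.216). In the clones alone it passed with the clone block (-0.95; edgeR adjusted p = 3.45e-11), with block and correction (edgeR adjusted p = 5.09e-06) and with DESeq2 (adjusted p = 0.00422). The block fit, with 1 residual degree of freedom and a spread taken from the trend over all genes, called 15.0% of all genes. The fit with block and correction called 18.9%, and DESeq2 called 310 genes. SLC7A2, another cationic carrier named here after its values were seen, had 0.538, 1.09 and 0.307 CPM with DMSO and 3.21, 5.62 and 2.7 CPM with E2, on 9 to 164 counts per library, and did not pass (2.55, SE 0.50; edgeR adjusted p = 0.0791). Between clones and parental cells, SLC6A17, a neutral amino acid carrier of synaptic vesicles, was lower in the clones, with a log2 difference of -2.02 (SE 0.27; edgeR adjusted p = 0.0493), from 2.49 and 4.06 CPM in the parental line to 0.444 to 1.16 CPM in the clones. That knockout test counts both libraries of a line as separate replicates, so this p-value can be too small. With the clone as a random block, in limma-voom, the adjusted p of SLC6A17 was 0.0561, and with the GC and length correction the difference was -2.17 (edgeR adjusted p = 0.0445).

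The lists of genes that act around the transporters held 0 calls in edgeR. The share of all genes that passed was 1.13% for E2, 0.327% for the knockout and 0.00% for the interaction, so a count of 0 in lists of this size is near the background. Of the targets through which ATF4 answers amino acid shortage, 24 of 25 were tested and 0 passed for E2, knockout or interaction. The same held for 19 of 20 cytosolic aminoacyl-tRNA synthetases, which load amino acids onto tRNA, with a median E2 change of 0.15, and for 32 of 34 genes of amino acid sensing by mTORC1 (median -0.06). It held too for 18 genes of glutathione synthesis and NRF2 response (median -0.11) and for 15 enzymes of glutamine and branched-chain amino acid breakdown (median 0.01). Medians are on the log2 scale. MYC, which drives several of these transporters in other cells, had 119.9, 112 and 71.3 CPM with DMSO and 137, 121 and 84.5 CPM with E2, in the parental line, clone 1 and clone 2. NFE2L2, which encodes NRF2, had 119 to 135 CPM in the 6 libraries. EIF2AK4, which encodes the kinase GCN2 that senses uncharged tRNA, had 103 to 147 CPM. SLC38A9, the arginine sensor of the lysosome, had 18.3 to 30.9 CPM with the parental DMSO library highest. ESR1, which encodes the estrogen receptor, had 199, 276 and 246 CPM with DMSO and 154, 203 and 149 CPM with E2, and its E2 and knockout tests did not pass (E2 -0.50, SE 0.16; edgeR adjusted p = 0.177). It was lower with E2 in all 3 lines, and with the clone block and the GC and length correction together its E2 change passed (-0.60; edgeR adjusted p = 0.0139). That fit called 10.1% of all genes, against 1.13% in the main fit.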

How the data were processed

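Poly(A) RNA from 6 Ishikawa cultures was sequenced after a stranded library preparation, per the labels' protocols. The authors deposited a table of whole-number read counts per gene, used for every result, and a table of normalized signal per gene, whose values are the deposited counts divided by 1 factor per library and were used only to check that. HISAT2, SAMtools, Subread and DESeq2 are named with genome build hg19, per the submitters' processing notes. Their versions, the annotation and the strand setting are not given in the sources used here.

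Genes were filtered with edgeR's filterByExpr (15611 kept), scaled by TMM and tested with edgeR 4.0.16 quasi-likelihood F tests in R 4.3.3, with Benjamini-Hochberg adjustment over all genes tested and a threshold of 0.05. The E2 and knockout effects came from 1 additive model over the 6 libraries, the interaction from a model with both terms and their product, and the E2 effect in clones from the 4 clone libraries (14881 genes). Ratios per line used CPM with a prior count of 2 and have no test. Depth was 28037392 to 36829479 counts per library, so counting error is small for every member except SLC43A1, whose precision is limited by its 51 to 134 counts.

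Transcript length and GC content came from the longest GENCODE transcript of GRCh38, matched by symbol for 93.7% of tested genes. The GC correction removed a lowess trend (span 0.3) from each library. Alternatives were other scaling, filters, DESeq2 1.42.0, limma 3.58.1, the clone as a block, and leaving out each line or library. Clone numbers pair the libraries because DMSO and E2 libraries of a number come from the same clone. Across genes, the difference between clones with DMSO correlated with that with E2 (r = 0.626, 15611 genes). The scripts were tested on simulated data.

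The members and the gene lists were chosen with earlier results of these data known. Named by rule in the text are the 10 members, 6 regulators and the 5 genes most like SLC7A5. From each other list, the rule took up to 2 genes per direction with the largest change among those that passed. Outside this rule are ETV4, SLC7A5P2, SLC7A6OS, SLC7A11-AS1, the cell type markers and SLC7A2, which was named after its values were seen.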

Additional observations from a re-analysis of the deposited data

Results flagged for a closer look

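ATF4, which encodes the transcription factor that raises amino acid transporters and synthesis genes when amino acids are short, moved in opposite directions in parental cells and clones. It had 825 CPM with DMSO and 583 CPM with E2 in the parental line, a log2 ratio of -0.50. In clone 1 it had 534 and 595 CPM (0.16), and in clone 2 it had 400.3 and 543 CPM (0.44). The parental DMSO library was the highest of the 6. With the GC and length correction the ratios were -0.38, 0.21 and 0.44. The difference in the E2 change between clones and parental cells was 0.78 on the log2 scale (SE 0.33) and did not pass (adjusted p = 0.617, quasi-likelihood test of edgeR, Benjamini-Hochberg adjusted). ATF4 was flagged for this same difference, and the share of all genes that turn direction in this way was not computed.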

How the results depend on the processing

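Each result was recomputed under other processing, and of 656 recomputed single-gene values with a test, 607 kept their direction and their side of the threshold. The number of all genes that passed for E2 was 176, and it was 1115 with DESeq2, 384 with the replicate block, 406 with the GC and length correction, 1581 with both, and 49 to 3353 when 1 line was left out. Of the 9 members other than SLC7A5, 1 passed for E2, 2 with the correction and block (SLC3A2 and SLC1A5), and 0 without the parental line, where 49 of all genes passed. Leaving out clone 2 leaves 1 library per genotype and treatment. The E2 change there was 0.61 for SLC7A1 and 0.57 for SLC7A6. For the knockout, 51 genes passed, 460 with DESeq2, 117 with the correction, and 631 to 996 when 1 clone was left out. The members went from 0 to 1 (SLC7A1) with DESeq2, and 0 to 1 when 1 clone was left out. In the clones alone 49 genes passed for E2, 310 with DESeq2, 2227 with the block, 2807 with block and correction, and 0 to 352 when 1 library was left out. The members there went from 0 to 1 with DESeq2 or the block and to 2 with block and correction (SLC1A5 too). The interaction called 0 genes, 26 with DESeq2, 2470 with the block, 1432 with block and correction, and 0 to 38 when 1 library was left out, and 1 member with the block.

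Members at least 1.5-fold above the parental line in both DMSO clones went from 1 to 3 with total counts as the scale. The share of all genes was 10.1% on the main scale and was not computed for total counts, so the 3 have no background beside them. The GC and length correction was chosen for these ratios after seeing the data. With it, of the 9 members other than SLC7A5, those at least 1.5-fold higher with E2 in the parental line went from 5 to 1. The share of all genes went from 21.5% to 18.0%. Members at least 1.5-fold below the parental line in both E2 clones went from 1 to 0. Before the correction 2.75% of all genes met that rule, and the share after it was not computed. The direction turned for values near 0. With the correction, alone or with the block, the E2 change of SLC1A4 was -0.03 and of NFE2L2 0.02, and the interaction of SLC1A4 was 0.01. The interaction of SLC43A1 was 0.02 with the correction and 0.03 with the block too. The knockout difference of SLC7A6 was 0.01 with at least 10 counts in every library, that of SLC3A2 0.04 with the correction, and the E2 change of SLC38A1 in clones -0.005 with the correction and -0.01 with the block too. When 1 line or library was left out, the ranges that crossed 0 were -0.17 to 0.28 (ATF4) and -0.02 to 0.15 (SLC1A4) for E2, -0.06 to 0.04 (SLC7A6), -0.03 to 0.08 (SLC38A2) and -0.10 to 0.03 (SLC3A2) for the knockout, -0.20 to 0.14 (SLC1A4) and -0.11 to 0.16 (SLC38A1) for E2 in clones, and -0.13 to 0.07 (SLC7A11) and -0.29 to 0.18 (SLC43A1) for the interaction. Beyond fewer samples in some fits, the cause was not tested. With 1 parental library per treatment, a difference in E2 change between genotypes has no replicate on the parental side.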
